A study of Mus musculus with 6 samples.

Results

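Solute carriers are the membrane proteins that move amino acids, sugars, metals, nucleosides, ions and many other solutes across the plasma membrane and the membranes of organelles. Their genes carry the prefix *Slc*, a family number and a letter with a member number. Genes were grouped here by the broad substrate class of their family number, which need not be the substrate of each member. The members examined here are the 195 mouse genes whose annotated symbol starts with *Slc* and a family number, of 10553 genes that the probe annotation names, without *Slc39a13*, a neighbour of *Spi1*. They belong to 47 families. Each gene is represented by its brightest probe over all 6 pools in the authors' log2 table, a choice that does not use the genotype. Of these probes, 194 were detected in at least 1 pool and were tested, and only *Slc47a1* was not. The rule also takes in 5 genes that are named after a carrier and are not carriers themselves, *Slc9a3r1*, *Slc9a3r2*, *Slc4a1ap*, *Slc7a6os* and *Slc2a4rg-ps*, which were kept as a class of their own.

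RNA came from LSK cells, the Lin-Sca-1+c-Kit+ fraction of the bone marrow, which includes HSCs and multipotent progenitors. There were 3 pools of PU.1-deficient cells (Spi1 fl/fl MxCre+) and 3 pools of wild-type cells (Spi1+/+ MxCre+), each pool from several C57BL/6 mice of 6 to 12 weeks of age and hybridized to 1 Illumina BeadChip array. The pools are called D1 to D3 (PU.1-deficient) and W1 to W3 (wild type), and the values of each genotype are listed by pool number. All mice of both genotypes carried the MxCre transgene and were injected with polyIC 2 times, 3 days apart, at a dose of 5 µg per g, and the cells were isolated 14 days after the first injection. MxCre is switched on through the interferon pathway and is not restricted to LSK cells, and the wild-type pools share the transgene and the injections.

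*Spi1*, which encodes PU.1, had log2 intensities of 6.62, 5.80 and 6.00 in D1 to D3, against 8.54, 8.51 and 8.69 in W1 to W3 (log2 fold change -2.44, standard error 0.24, adjusted p = 0.00112). Log2 intensities here are background-corrected and quantile-normalized, the lowest values of detected probes lie between 4.95 and 5.28 in the 6 arrays, and fold changes are PU.1-deficient minus wild type. Each array had 15639 to 18174 detected probes, and with 3 arrays per genotype their number sets the precision. *Kit* was detected in all 6 pools (log2 fold change -0.44, adjusted p = 0.221), and no probe was used for *Ly6a*, which encodes Sca-1. Markers of other cells differed between the genotypes as well. Of 10 tested neutrophil markers 8 were higher in PU.1-deficient pools, where their summed linear intensity was 123361 to 134522, against 25874 to 39804 in wild-type pools. Of 7 tested erythroid markers 6 were lower (sums of 1355 to 1625 in PU.1-deficient pools and 4223 to 9916 in wild-type pools), of 4 tested megakaryocyte and platelet markers all 4 were lower (747 to 1299 in PU.1-deficient pools and 5768 to 6160 in wild-type pools), and of 4 tested mast cell and basophil markers 2 were higher (4998 to 6745 in PU.1-deficient pools and 1115 to 1822 in wild-type pools). Both tested monocyte markers, *Csf1r* and *Adgre1*, were lower, as were *Cd34* and *Meis1* among 5 tested genes of LSK cells. The 3 tested B cell markers were mixed. *Vpreb1* was higher (1.56, adjusted p = 0.0265), *Cd79b* was lower (-1.41, adjusted p = 0.00502) and *Ms4a1* did not pass. The 1 tested T cell marker, *Cd4*, did not pass. In a sorted population measured in bulk, fewer cells of a type and less RNA per cell cannot be told apart. *Xist*, the transcript of the inactive X chromosome, passed detection in D1, D2 and D3 and, of the wild-type pools, in 1 alone. The labels used here do not give the sex of the mice, whose part in the values below was not tested. A difference in sex between the genotypes, if there was one, cannot be told apart from the loss of PU.1 in these pools.

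Solute carrier genes changed in both directions, and every substrate class had at least 1 gene past the threshold. At an adjusted p under 0.05, 15 of the 194 tested genes had more signal in PU.1-deficient cells and 20 had less. Together these are 18% of the genes, and the remaining 159 did not pass. Of the calls 42.9% were higher, and 28.6% with scaling to equal medians, which called 8 genes higher and 20 lower. Over all tested probes the share of calls that were higher moved the same way, and was 55.6% and, with equal medians, 37.1%. Among all 22119 tested probes 8.79% passed, 4.89% higher and 3.91% lower, and among the brightest probes of all 10528 named and tested genes 12.2% passed, 6.61% higher and 5.59% lower. The corresponding shares of solute carrier genes were 7.73% higher and 10.3% lower. Their median log2 fold change was -0.08, beside -0.05 over all tested probes, and it was -0.06 with the 21 genes that were undetected in all pools of a genotype set at their bounds. The log2 fold changes ran from -3.43 (*Slc38a5*) to 4.0 (*Slc27a3*). In 79 genes (40.7%) the 3 pools of PU.1-deficient cells did not overlap with the 3 pools of wild-type cells, beside 28.0% of all tested probes and 34.5% of the named genes. All 35 genes past the threshold were among them, and 21 of the 35 were detected in all 6 pools.

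**Figure D1:**
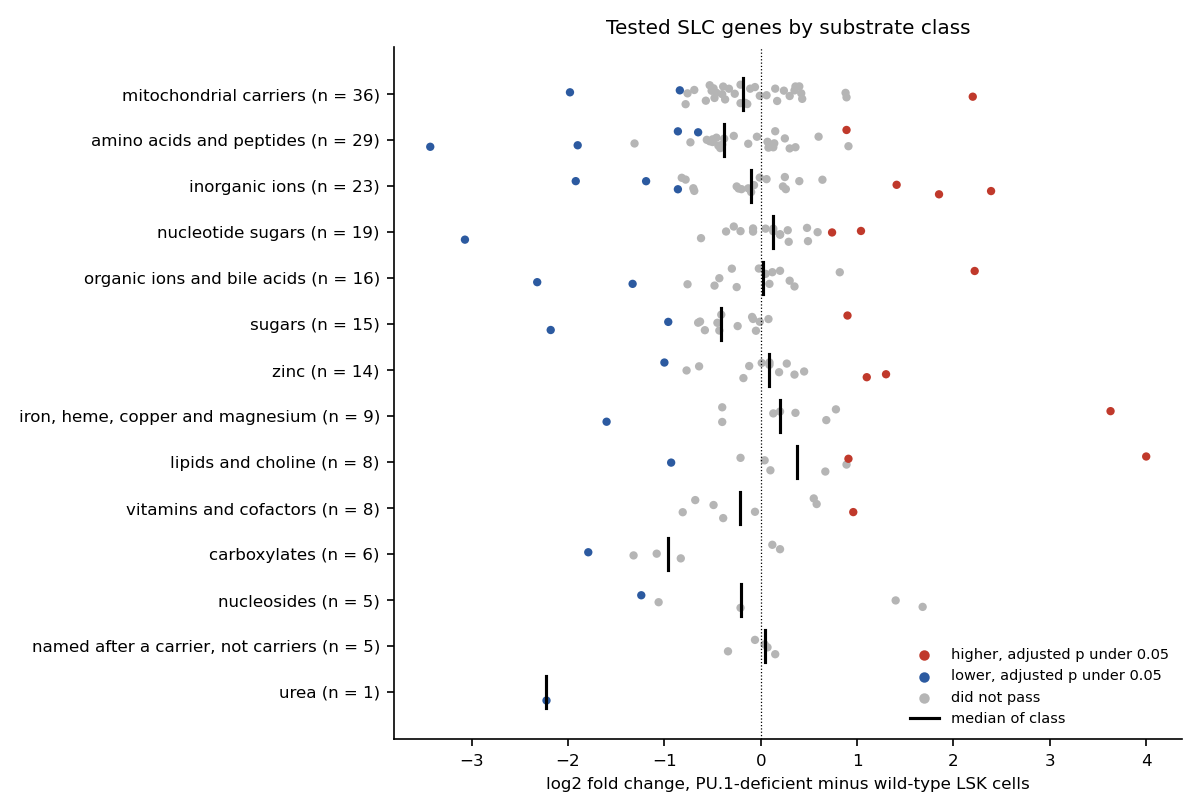
Log2 fold change (PU.1-deficient minus wild type) of each of the 194 tested solute carrier genes, 1 point per gene, in rows by substrate class, with red for higher and blue for lower at an adjusted p under 0.05, grey for genes that did not pass and a black line for the median of the class. Genes past the threshold lie on both sides of 0, and the largest rises, *Slc27a3* at 4.0 and *Slc40a1* at 3.63, and the largest falls, *Slc38a5* at -3.43 and *Slc35d3* at -3.07, are single members that stand far from their class medians.

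The sequences just upstream of the annotated start are given for 4 of the called genes that moved most. The 3 largest rises and 3 largest falls among called genes with a single start were taken. Of these, *Slc22a4* and *Slc25a29*, both higher, are not printed, so that the printed windows hold more falls than rises. No upstream sequence was at hand for *Slc40a1* (log2 fold change 3.63) and *Slc8b1* (2.39), which rose more than *Slc22a4* and *Slc25a29*. The sequences show the stretches in which motifs of PU.1 and of the factors of the lineages named above were searched. They are the 250 bases before the RefSeq start (GRCm38.p6), and all 4 genes have a single start in the RefSeq table, which held 152 of the 195 genes. Capitals mark matches on either strand to a PU.1-type ETS motif (GAGGAAGT), a motif of GATA factors (AGATAA) or a motif of C/EBP factors (TTNNGCAA), and no 2 matches overlap in these windows.
Slc27a3, chr3:90389939-90390188, minus strand: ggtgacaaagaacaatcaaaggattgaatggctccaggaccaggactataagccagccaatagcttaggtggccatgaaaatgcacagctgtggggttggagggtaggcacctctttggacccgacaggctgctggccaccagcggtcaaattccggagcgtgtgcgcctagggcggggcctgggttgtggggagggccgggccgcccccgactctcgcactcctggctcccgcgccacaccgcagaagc
Slc38a5, chrX:8271131-8271380, plus strand: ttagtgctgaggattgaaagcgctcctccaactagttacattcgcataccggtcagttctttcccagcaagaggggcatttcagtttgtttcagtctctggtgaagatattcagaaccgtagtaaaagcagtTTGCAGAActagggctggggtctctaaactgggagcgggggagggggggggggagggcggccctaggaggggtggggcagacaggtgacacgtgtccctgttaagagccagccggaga
Slc35d3, chr10:19851460-19851709, minus strand: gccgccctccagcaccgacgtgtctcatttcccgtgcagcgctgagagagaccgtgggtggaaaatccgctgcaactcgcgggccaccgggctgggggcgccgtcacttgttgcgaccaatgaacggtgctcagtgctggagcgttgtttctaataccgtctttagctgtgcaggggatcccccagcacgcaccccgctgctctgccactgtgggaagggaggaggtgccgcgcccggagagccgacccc
Slc22a18, chr7:143473539-143473788, plus strand: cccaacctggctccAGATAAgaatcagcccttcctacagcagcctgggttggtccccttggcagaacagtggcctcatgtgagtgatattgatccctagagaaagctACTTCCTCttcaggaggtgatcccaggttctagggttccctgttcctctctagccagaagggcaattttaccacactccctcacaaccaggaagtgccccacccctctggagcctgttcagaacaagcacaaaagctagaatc
The *Slc22a18* window held the ETS motif, on the opposite strand and starting 143 bases before the start, and the GATA motif 236 bases before it. The *Slc38a5* window held the C/EBP motif, on the opposite strand, 118 bases before the start, and the *Slc27a3* and *Slc35d3* windows held none of the 3. Neither did the windows of *Slc22a4* and *Slc25a29* that are not printed. Over all 27025 genes with windows of this length, 2.79% held the ETS motif, 11.4% the GATA motif and 10.8% the C/EBP motif in at least 1 window. Of the 152 solute carrier genes in the table, 6 held the ETS motif, 15 the GATA motif and 14 the C/EBP motif. Of the solute carrier genes in the table that were lower, 1 of 14 held the ETS motif, 2 the GATA motif and 2 the C/EBP motif, and of those that were higher, 0 of 12 held the ETS motif, 2 the GATA motif and 3 the C/EBP motif. A match is a description of the letters and not a binding site.

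*Slc27a3* and *Slc40a1* showed the largest rises. *Slc27a3*, of the family of fatty acid transport proteins that also act as acyl-CoA synthetases, had log2 intensities of 9.38, 10.31 and 9.69 in PU.1-deficient pools, against 5.64, 6.04 and 5.69 in wild-type pools. The log2 fold change was 4.0, or 16-fold, with a standard error of 0.27 (adjusted p = 0.000211, 3 pools per genotype), and the lowest PU.1-deficient pool lay far above the highest wild-type pool. The related *Slc27a2*, a very long chain acyl-CoA synthetase, went the other way and lay below detection in D1, D2 and D3, with values of 5.15, 5.65 and 5.79 in wild-type pools (at least 1.34-fold lower, adjusted p = 0.0361). That call ended without D1, D2, D3, W2 or W3 (adjusted p up to 0.152), with scaling to equal medians (0.0519), with no background correction (0.0833) and with an offset of 50 (0.0721). *Slc44a4*, of the choline transporter-like family, passed detection in D1, D2 and D3 and in no wild-type pool, and was at least 1.54-fold higher (adjusted p = 0.0481). It was a weak call, which held without D1 but ended without any other pool (up to 0.179) and with scaling to equal medians (0.124), no background correction (0.111), an offset of 50 (0.0886) and no filter (0.0736). The other 5 tested carriers of lipids and choline did not pass.

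Among carriers of iron, heme, copper and magnesium, *Slc40a1* encodes ferroportin, the only known iron exporter of vertebrate cells. It had log2 intensities of 11.72, 11.42 and 11.28 in PU.1-deficient pools, against 8.32, 7.63 and 7.59 in wild-type pools (log2 fold change 3.63, standard error 0.25, adjusted p = 0.000233), a 12.4-fold difference with no overlap. *Heph*, which encodes the ferroxidase hephaestin that works with ferroportin, was the only called gene among 15 tested genes of iron and heme handling outside the carrier family. It was below detection in every wild-type pool and reached 8.28, 6.00 and 6.77 in PU.1-deficient pools, at least 4.11-fold higher (adjusted p = 0.027), with a call that ended without D3 (0.0822) or W1 (0.0571), W2 (0.101) or W3 (0.0964), with scaling to equal medians (0.0534), no background correction (0.0974), an offset of 50 (0.0664) and no filter (0.0894). The other 14 genes of that list did not pass, among them *Tfrc*, the transferrin receptor (0.61, adjusted p = 0.244), *Fth1*, a ferritin chain (-0.29, adjusted p = 0.371), and *Hmox1*, heme oxygenase, which was below detection in every PU.1-deficient pool and detected in all wild-type pools (adjusted p = 0.0602). Nor did the other iron and heme carriers pass. *Slc11a1*, the metal transporter of phagosomes, had a log2 fold change of -0.40 (adjusted p = 0.338), *Slc11a2*, a divalent metal importer, of -0.40 (0.502), and *Slc48a1*, a heme transporter, of 0.78 (0.107). The magnesium carrier family member *Slc41a3* was lower, with values of 4.91, 6.17 and 5.47 in PU.1-deficient pools and 7.17, 7.19 and 6.99 in wild-type pools (-1.60, standard error 0.31, adjusted p = 0.0192). Its other probe also passed (-1.40, adjusted p = 0.0104), and the call of the brighter probe ended without D3 (0.0811), W2 (0.0839) or W3 (0.0732) and with no filter (0.055).

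**Figure D2:**
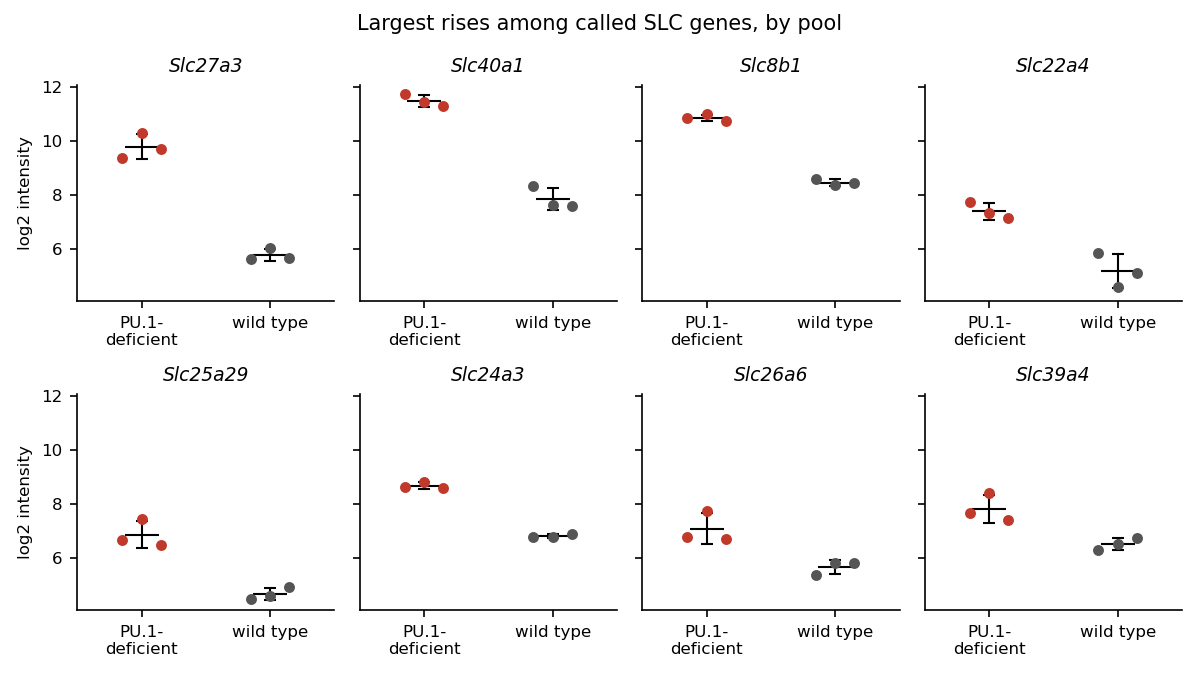
Log2 intensity (vertical axis) of the 8 solute carrier genes with the largest rises among those past the threshold, 1 panel per gene, with 1 point for each of the 3 PU.1-deficient pools (left, red) and the 3 wild-type pools (right, grey), a bar for the mean and whiskers for the SD. In these 8 genes, from *Slc27a3* (log2 fold change 4.0) to *Slc39a4* (1.30), all PU.1-deficient pools lie above all wild-type pools. *Slc28a2b* (1.68) and *Slc28a2* (1.40), whose pools overlap, did not pass and are not drawn.

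Carriers of inorganic ions gave as many higher as lower genes, 3 of each among 23 tested. *Slc8b1*, the sodium and calcium exchanger of the inner mitochondrial membrane, had values of 10.83, 10.98 and 10.75 in PU.1-deficient pools and 8.59, 8.36 and 8.43 in wild-type pools (log2 fold change 2.39, standard error 0.17, adjusted p = 0.000265). *Slc24a3*, a potassium-dependent sodium and calcium exchanger of the plasma membrane, had 8.62, 8.83 and 8.58 in PU.1-deficient pools and 6.8, 6.77 and 6.91 in wild-type pools (1.85, standard error 0.16, adjusted p = 0.000716). The pools of *Slc8b1* and *Slc24a3* did not overlap between the genotypes. The other tested calcium exchangers of these families did not pass, with log2 fold changes of -0.78 for *Slc8a1* (adjusted p = 0.168), -0.25 for *Slc24a1* (0.616) and -0.07 for *Slc24a5* (0.889), and in each the pools overlapped. These 3 were named after their values were seen. *Slc26a6*, an anion exchanger of chloride, bicarbonate and oxalate, had 6.79, 7.75 and 6.73 in PU.1-deficient pools and 5.39, 5.84 and 5.81 in wild-type pools (1.41, standard error 0.30, adjusted p = 0.0297), a call that held without D2 and ended without any other pool (up to 0.0973), with no background correction (0.0619) and with no filter (0.0743).
The lower ones included *Slc4a1*, the band 3 anion exchanger of the red cell membrane, which had 4.54, 4.54 and 5.16 in PU.1-deficient pools, with detection in 1 of them, and 6.55, 7.18 and 6.28 in wild-type pools (-1.92, standard error 0.29, adjusted p = 0.00662). It fell along with 6 of the 7 tested erythroid markers, among them *Klf1* (-3.02), *Epor* (-2.02) and *Hba-a1* (-3.20). The other marker, *Tfrc*, had a positive estimate and did not pass (0.61, adjusted p = 0.244). Whether fewer erythroid cells in the gate account for the fall of *Slc4a1* was not tested. *Slc12a2*, the sodium, potassium and chloride cotransporter that is widely expressed, had 8.01, 8.54 and 8.48 in PU.1-deficient pools and 9.22, 9.74 and 9.64 in wild-type pools (-1.19, standard error 0.23, adjusted p = 0.0179). A dimmer probe of *Slc12a2* also passed (-1.15, adjusted p = 0.00867) and another, near background, did not (-0.17, adjusted p = 0.668). The call of its brightest probe ended without D1 (0.0628) or D3 (0.0561) or W2 (0.0883) or W3 (0.0903). *Slc9a9*, an endosomal sodium and proton exchanger, lay below detection in D1, D2 and D3 and was at least 1.35-fold lower (adjusted p = 0.019), and was not called on leaving out D1 (0.0826) or D3 (0.0746), W2 (0.0937) or W3 (0.0959), or with no background correction (0.0779). The phosphate importer *Slc20a1* did not pass (0.26, adjusted p = 0.764), and its sign turned with scaling to equal medians (-0.06).

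Among amino acid carriers, 4 of 29 tested genes were lower and 1 was higher. The median log2 fold change of the class was -0.38. *Slc38a5*, a sodium-coupled carrier of glutamine and other neutral amino acids, had the largest fall of all solute carriers. It had log2 intensities of 4.68, 4.62 and 4.97 in PU.1-deficient pools, in 1 of which it was detected, against 8.99, 7.99 and 7.58 in wild-type pools (log2 fold change -3.43, standard error 0.35, adjusted p = 0.00134), so that its size rests in part on background signal. *Slc6a13*, a GABA transporter that also carries taurine, had 5.85, 7.18 and 6.61 in PU.1-deficient pools and 8.43, 8.59 and 8.30 in wild-type pools (-1.90, standard error 0.33, adjusted p = 0.0116), and missed the threshold without D3 (0.0502) or W2 (0.0585) or W3 (0.0512). *Slc66a2* had 9.24, 9.54 and 9.42 in PU.1-deficient pools and 9.97, 10.47 and 10.34 in wild-type pools, a smaller difference (-0.86, standard error 0.20, adjusted p = 0.038), a call that held on leaving out D2 or W1 and ended on leaving out any other pool (up to 0.161).
A pair of related light chains went in opposite directions. *Slc7a7* and *Slc7a6* encode light chains that join the heavy chain encoded by *Slc3a2* to form exchangers of cationic and neutral amino acids. *Slc7a7* had 7.10, 6.42 and 6.68 in PU.1-deficient pools and 5.84, 5.86 and 5.82 in wild-type pools (0.89, standard error 0.21, adjusted p = 0.0406). A second probe of *Slc7a7* gave 1.48 (adjusted p = 0.0153) and another, near background, gave 0.00 (adjusted p = 0.993). *Slc7a6* had 7.01, 7.01 and 6.93 in PU.1-deficient pools and 7.63, 7.58 and 7.71 in wild-type pools (-0.65, standard error 0.16, adjusted p = 0.0428). The heavy chain *Slc3a2* had a log2 fold change of -0.04 (adjusted p = 0.959). Both calls were marginal. That of *Slc7a6* was lost on leaving out each pool in turn (0.0618 to 0.176), and that of *Slc7a7* likewise except for D2 (0.0723 to 0.152). With scaling to equal medians neither *Slc7a6* (0.0822) nor *Slc7a7* (0.428) passed, and *Slc7a7* did not pass with no background correction (0.0642) or no filter (0.0536).
Other carriers on which dividing blood cells draw for amino acids did not pass. These were *Slc38a2*, a carrier of small neutral amino acids (-0.28, adjusted p = 0.588), *Slc7a11*, the cystine and glutamate exchanger (0.15, adjusted p = 0.804), and *Slc1a5*, a glutamine carrier below detection in every PU.1-deficient pool and detected in 2 of 3 wild-type pools (adjusted p = 0.423). *Slc43a1*, a carrier of large neutral amino acids named here after its values were seen, fell short with its brighter probe (-1.31, adjusted p = 0.0567), while its dimmer probe passed (-1.26, adjusted p = 0.0117). Of 15 tested genes of amino acid sensing and of the response to amino acid shortage, 2 were higher and none was lower. *Chac1*, a glutathione-degrading enzyme induced through ATF4, was below detection in every wild-type pool and had 6.82, 7.15 and 7.01 in PU.1-deficient pools, at least 4.04-fold higher (adjusted p = 0.000315). *Lamtor4*, a subunit of the Ragulator complex on lysosomes, was higher by 0.91 (standard error 0.18, adjusted p = 0.0187), a call that ended without D1 (0.0775) or W2 (0.0958) or W3 (0.0917) and with scaling to equal medians (0.0993). *Asns*, the asparagine synthetase that responds to the same pathway, did not pass (1.0, adjusted p = 0.0755), nor did *Atf4* itself (-0.08, adjusted p = 0.864). *Psat1* of the same list had a negative estimate and did not pass (-0.91, adjusted p = 0.0706), nor did *Ddit3* (0.13, adjusted p = 0.823). The median log2 fold change of the 15 genes was 0.13.

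Mitochondrial carriers were the class with the most genes. Of 36 tested, 1 was higher and 2 were lower (8.33%), and the class median was -0.18. *Slc25a29*, a mitochondrial carrier of basic amino acids, was below detection in every wild-type pool and had 6.67, 7.46 and 6.50 in PU.1-deficient pools, at least 3.73-fold higher (adjusted p = 0.00338). *Slc25a12*, the aspartate and glutamate carrier of the malate-aspartate shuttle, had 6.84, 6.55 and 7.07 in PU.1-deficient pools and 8.93, 8.69 and 8.79 in wild-type pools (log2 fold change -1.98, standard error 0.19, adjusted p = 0.00111), and its other probe passed as well, below detection in every PU.1-deficient pool and at least 1.91-fold lower. The third call was *Slc25a45*, with 9.20, 9.55 and 9.31 in PU.1-deficient pools and 9.96, 10.27 and 10.34 in wild-type pools (-0.84, standard error 0.19, adjusted p = 0.0369), which ended without D1 or D3 or W2 or W3 (0.128 to 0.159). Carriers of the heme pathway stayed short of the threshold. *Slc25a37*, mitoferrin, which brings iron to the mitochondrial matrix, had a log2 fold change of -0.39 (adjusted p = 0.448), *Slc25a38*, the glycine carrier of heme synthesis, of -0.46 (0.265), and *Slc25a39*, a glutathione carrier, of -0.21 (0.687).

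Of 15 tested genes of the sugar families, 1 was higher and 2 were lower. In all, 13 of them had a negative log2 fold change, beside 108 of all 194 genes, and their median was -0.41. *Slc45a3*, of the family of proton-coupled sugar carriers, had 4.48, 4.60 and 4.76 in PU.1-deficient pools, all below detection, and 7.04, 6.43 and 6.92 in wild-type pools, at least 3.22-fold lower (adjusted p = 0.00109). *Slc5a6*, whose family is named for sugars and which itself carries biotin and pantothenate, had 7.21, 8.01 and 7.64 in PU.1-deficient pools and 8.54, 8.73 and 8.48 in wild-type pools (-0.96, standard error 0.23, adjusted p = 0.0463), and only without D2 did its call hold when a pool was left out (up to 0.181 otherwise), and it ended with no filter (0.0775). *Slc37a4*, the glucose-6-phosphate carrier of the endoplasmic reticulum, whose loss in humans causes glycogen storage disease with neutropenia, had 7.18, 7.70 and 7.29 in PU.1-deficient pools and 6.34, 6.55 and 6.58 in wild-type pools (0.90, standard error 0.20, adjusted p = 0.0332). Its pools did not overlap, but the call was lost on leaving out each pool in turn (0.0541 to 0.113) and with scaling to equal medians (0.246). None of the 7 tested members of the *Slc2* family passed. Among them *Slc2a1* and *Slc2a3*, the main glucose importers of blood cells, had log2 fold changes of -0.45 (adjusted p = 0.459) and -0.58 (adjusted p = 0.119).
All 6 tested carboxylate carriers were of the *Slc16* family of monocarboxylate carriers. *Slc16a13* was lower, with 4.98, 5.47 and 5.57 in PU.1-deficient pools and 6.82, 7.43 and 7.15 in wild-type pools (-1.79, standard error 0.24, adjusted p = 0.00401), though its other probe did not pass (-0.88, adjusted p = 0.106). *Slc16a3*, an exporter of lactate, did not pass (0.20, adjusted p = 0.619). Of 7 tested genes of glucose uptake and lactate handling outside the carrier family, none passed. *Txnip*, which limits glucose uptake, had -0.95 (adjusted p = 0.0752), *Ldha*, lactate dehydrogenase, -0.40 (0.187), and *Emb*, a chaperone of monocarboxylate carriers, -0.38 (0.232).

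**Figure D3:**
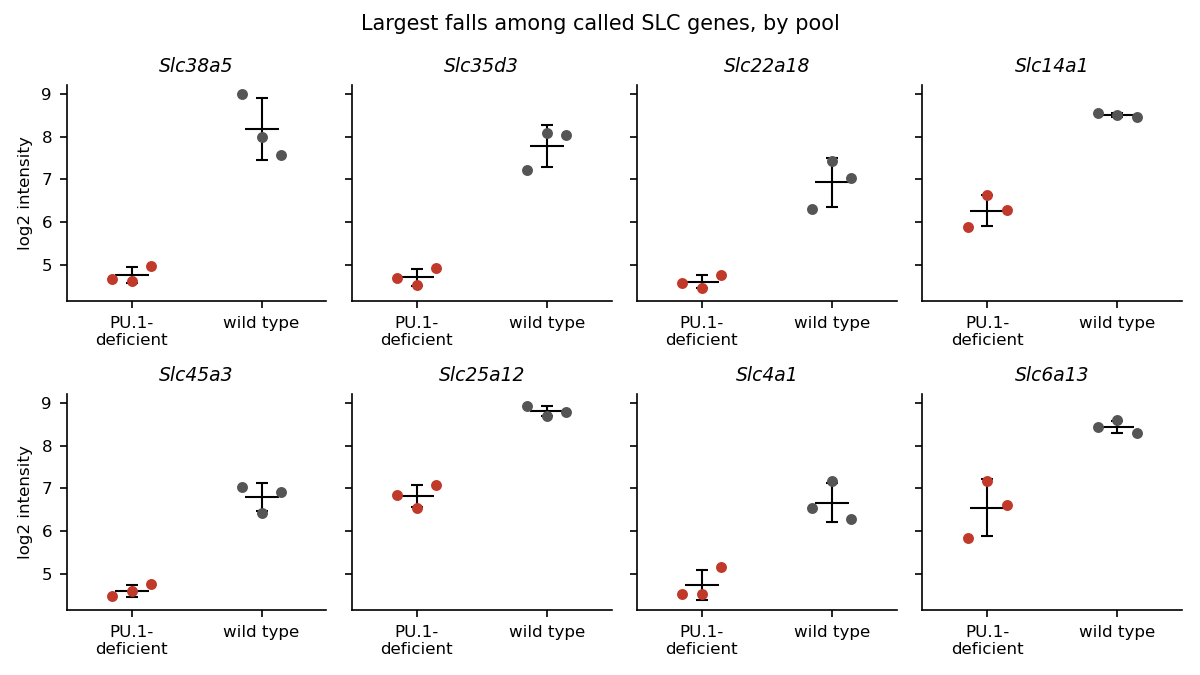
Log2 intensity (vertical axis) of the 8 solute carrier genes with the largest falls among those past the threshold, 1 panel per gene, with 1 point for each of the 3 PU.1-deficient pools (left, red) and the 3 wild-type pools (right, grey), a bar for the mean and whiskers for the SD. All PU.1-deficient pools lie below all wild-type pools, and *Slc38a5*, *Slc35d3*, *Slc22a18*, *Slc45a3* and *Slc4a1* lie near the lowest detected values, 4.95 to 5.28, in most or all PU.1-deficient pools.

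Nucleotide sugar carriers, which supply the Golgi and the endoplasmic reticulum with the donors of glycosylation, had 2 higher genes and 1 lower gene among 19 tested, with a class median of 0.13. *Slc35c1*, the Golgi carrier of GDP-fucose, whose loss in humans causes a leukocyte adhesion deficiency, had 12.15, 12.21 and 12.01 in PU.1-deficient pools and 11.16, 11.03 and 11.06 in wild-type pools (log2 fold change 1.04, standard error 0.16, adjusted p = 0.00739). Its other probe gave 1.35 (adjusted p = 0.00377), and with scaling to equal medians the first did not pass (0.068). *Slc35c1* lies on chromosome 2, as does *Spi1*. On that chromosome 4 of the 22 solute carrier genes were called, a share similar to the 35 of all 194 tested. The count takes in the whole chromosome and cannot tell how genes close to *Spi1* behaved. A part of the shared chromosome in the rise of *Slc35c1* was not tested. *Slc35d3*, whose loss in mice impairs the dense granules of platelets, had 4.69, 4.53 and 4.93 in PU.1-deficient pools, all below detection, and 7.21, 8.09 and 8.05 in wild-type pools, at least 6.38-fold lower (adjusted p = 0.000716). It moved with the platelet markers *Pf4* (-3.43), *Gp9* (-1.99) and *Vwf* (-3.19), whose part in it was not tested. *Slc35e1*, for which no role is given here, had 8.74, 8.82 and 8.84 in PU.1-deficient pools and 8.18, 8.03 and 7.95 in wild-type pools (0.74, standard error 0.16, adjusted p = 0.0303), and held its call only without W1 when a pool was left out (up to 0.143 otherwise) and lost it with scaling to equal medians (0.494). The other 16 did not pass.

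Zinc carriers fall into a pair of families that move the metal in opposite directions. None of 7 tested *Slc30* genes, which move zinc out of the cytosol, passed, and *Slc30a1*, the exporter of the plasma membrane, had a log2 fold change of -0.64 (adjusted p = 0.0906). Of 7 tested *Slc39* genes, which move zinc into the cytosol, 3 passed. *Slc39a11* had 11.63, 11.41 and 11.58 in PU.1-deficient pools and 10.37, 10.40 and 10.54 in wild-type pools (1.10, standard error 0.16, adjusted p = 0.00635), a call that ended with scaling to equal medians (0.076). *Slc39a4*, the zinc importer of the gut whose loss in humans causes acrodermatitis enteropathica, had 7.69, 8.40 and 7.40 in PU.1-deficient pools and 6.30, 6.52 and 6.76 in wild-type pools (1.30, standard error 0.28, adjusted p = 0.0306). *Slc39a6* was lower, with 8.99, 8.47 and 8.90 in PU.1-deficient pools and 10.06, 9.61 and 9.68 in wild-type pools (-1.0, standard error 0.22, adjusted p = 0.0305). The call of *Slc39a4* ended on leaving out D1 or any of W1 to W3 (0.0673 to 0.114) and with no filter (0.0706), and that of *Slc39a6* was lost on leaving out each pool in turn (0.0582 to 0.0992) and with scaling to equal medians (0.072). *Slc39a10*, a zinc importer needed by B cells and macrophages in mice, did not pass (-0.77, adjusted p = 0.0846), but did so with array weights (0.0257), with 1 value per gene (0.0495) and without D2 and W1 together (0.0489). Of 3 tested genes of zinc handling, the metallothionein *Mt2* lay below detection in D1, D2 and D3 and was at least 1.26-fold lower (adjusted p = 0.0458, and 0.0659 to 0.172 on leaving out each pool in turn), while *Mt1* did not pass (0.70, adjusted p = 0.252).

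Of 16 tested carriers of organic ions and bile acids, 1 was higher and 2 were lower. *Slc22a4*, the carrier of ergothioneine and carnitine, had 7.75, 7.34 and 7.14 in PU.1-deficient pools and 5.85, 4.61 and 5.11 in wild-type pools (log2 fold change 2.22, standard error 0.33, adjusted p = 0.00633). *Slc22a18*, of the same family and from an imprinted gene cluster, was below detection in every PU.1-deficient pool (4.58, 4.47 and 4.77) and had 6.32, 7.44 and 7.03 in wild-type pools, at least 3.52-fold lower (adjusted p = 0.00312). *Slc18b1*, a vesicular polyamine carrier, was likewise below detection in D1, D2 and D3 and was at least 1.84-fold lower (adjusted p = 0.017), without a call when D1 (0.0704) or W2 (0.0612) or W3 (0.075) was left out. *Slc18a2*, the vesicular monoamine carrier of mast cells, basophils and platelets, had 7.54, 7.72 and 7.99 in PU.1-deficient pools and 8.20, 8.70 and 8.62 in wild-type pools and did not pass (-0.76, adjusted p = 0.0765). It passed without W1 (0.0406), with no background correction (0.0484), with 1 value per gene (0.0438), with array weights (0.00747) and without D2 and W1 together (0.0222). Among the markers that share its cells, *Mcpt8* (3.73) and *Cpa3* (1.37) were higher and *Pf4* was lower. The other tested mast cell and basophil markers did not pass. *Fcer1a* had 0.33 (adjusted p = 0.512), and *Ms4a2* was below detection in every PU.1-deficient pool (adjusted p = 0.525).

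In the remaining classes there were 3 calls. *Slc14a1*, the urea carrier of red cells that carries the Kidd blood group in humans, had 5.90, 6.63 and 6.28 in PU.1-deficient pools and 8.55, 8.50 and 8.46 in wild-type pools (log2 fold change -2.23, standard error 0.22, adjusted p = 0.00106). Its other 2 probes gave -1.52 (adjusted p = 0.026) and -1.41 (adjusted p = 0.112). *Slc29a1*, the equilibrative nucleoside carrier of red cells and many other cells, had 8.18, 8.56 and 8.23 in PU.1-deficient pools and 9.84, 9.47 and 9.37 in wild-type pools (-1.24, standard error 0.20, adjusted p = 0.00973). Both fell beside the erythroid markers, of which *Car1* had -4.56 and *Aqp1* -3.76, while *Tfrc* of the same list had 0.61 and did not pass. The part of erythroid cells was not tested. *Slc46a1*, the proton-coupled folate carrier, had 5.58, 5.78 and 5.62 in PU.1-deficient pools and stayed below detection in W1, W2 and W3, at least 1.61-fold higher (adjusted p = 0.0199), and was not called on leaving out D1 (0.0617) or D3 (0.0738) or W2 (0.0907) or W3 (0.0956), with scaling to equal medians (0.134) or with no background correction (0.0699). None of the 5 genes named after a carrier passed, and their log2 fold changes ran from -0.34 to 0.15.

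Genes with several probes gave a second reading. The 52 genes with more than 1 probe had 72 other tested probes, of which 56 had the same sign as the brightest one. Of the 10 other probes of called genes, 6 passed in the same direction, 4 did not pass and 0 passed in the opposite direction. Only 1 other probe, that of *Slc43a1*, passed for a gene whose brightest probe did not. Of the 7 X-linked genes only *Slc38a5* passed, and the other 6 had log2 fold changes of -0.51 (*Slc25a5*, an ADP and ATP carrier, adjusted p = 0.1) to 0.48 (*Slc35a2*, the UDP-galactose carrier, adjusted p = 0.326), while *Xist* had 5.62. These values were not used to read the sex of the mice.

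The median within-genotype SD was 0.29 on the log2 scale for the 194 genes and 0.28 for all tested probes. In 4 genes this SD was above 1. *Slc28a2*, a concentrative nucleoside carrier, had 7.91, 4.71 and 7.03 in PU.1-deficient pools and 6.59, 4.35 and 4.49 in wild-type pools, and *Slc28a2b*, a close copy whose probe may read both genes, had 9.67, 7.16 and 9.24 in PU.1-deficient pools and 8.04, 6.27 and 6.71 in wild-type pools. *Slc25a36*, a mitochondrial pyrimidine nucleotide carrier, had 7.05, 4.90 and 6.11 in PU.1-deficient pools and 7.99, 4.93 and 4.97 in wild-type pools, and *Slc35a1*, the CMP-sialic acid carrier, had 6.00, 4.46 and 4.83 in PU.1-deficient pools and 6.65, 4.64 and 4.63 in wild-type pools. In each of these 4 genes D1 and W1 were the highest of their genotype, and none passed the test (adjusted p = 0.225 for *Slc28a2b*, 0.444 for *Slc28a2*, 0.9 for *Slc35a1* and 0.984 for *Slc25a36*). They were chosen for their spread after the values were seen.

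**Figure D4:**
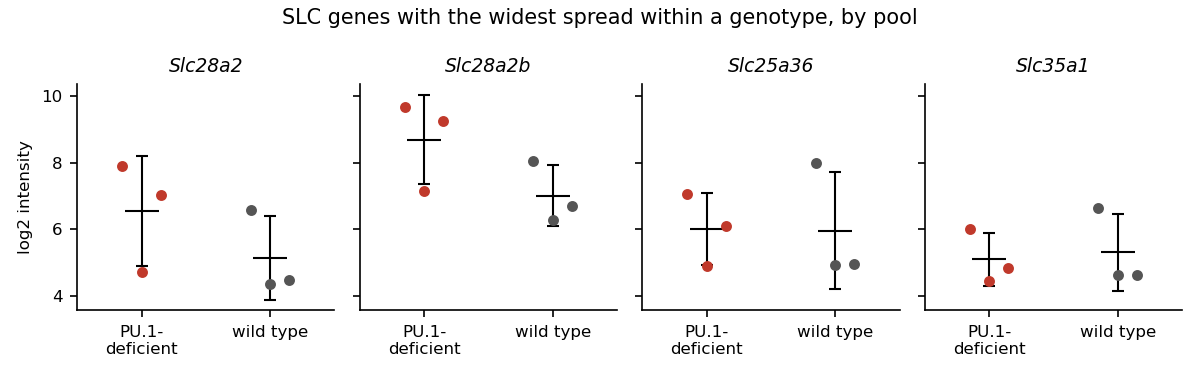
Log2 intensity (vertical axis) of the 4 solute carrier genes with the widest spread within a genotype, with 1 point for each of the 3 PU.1-deficient pools (left, red) and the 3 wild-type pools (right, grey), pools 1 to 3 from left to right, a bar for the mean and whiskers for the SD. Pool 1 is the highest point in both genotypes in each panel, as in *Slc25a36* with 7.05 among PU.1-deficient and 7.99 among wild-type pools.

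How many solute carrier genes passed depended on single pools. Leaving out D1 gave 9 higher and 11 lower genes, D3 gave 9 and 10, W2 gave 8 and 10, and W3 gave 8 and 9. Leaving out D2 gave 13 and 21, and W1 gave 11 and 23. Of the 35 genes called, 17 passed in each of these 6 fits, and 15 of these passed under every other setting that was run as well. The 15 were *Slc27a3*, *Slc40a1*, *Slc8b1*, *Slc25a29*, *Slc22a4* and *Slc24a3* among higher genes and *Slc38a5*, *Slc35d3*, *Slc22a18*, *Slc14a1*, *Slc45a3*, *Slc25a12*, *Slc4a1*, *Slc16a13* and *Slc29a1* among lower genes. None of the 35 changed sign under any setting. Of the other carriers named for their roles in blood cells, *Slc2a1*, *Slc2a3*, *Slc11a2*, *Slc18a2*, *Slc20a1*, *Slc25a37*, *Slc25a38*, *Slc25a39*, *Slc30a1*, *Slc38a2*, *Slc39a10* and *Slc48a1* did not pass but did so with array weights, which gave D2 and W1 the lowest weight of their genotype. All of these but *Slc25a39* and *Slc48a1* also passed without D2 and W1 together, and *Slc2a3* passed with no background correction (0.0498).

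**Figure D5:**
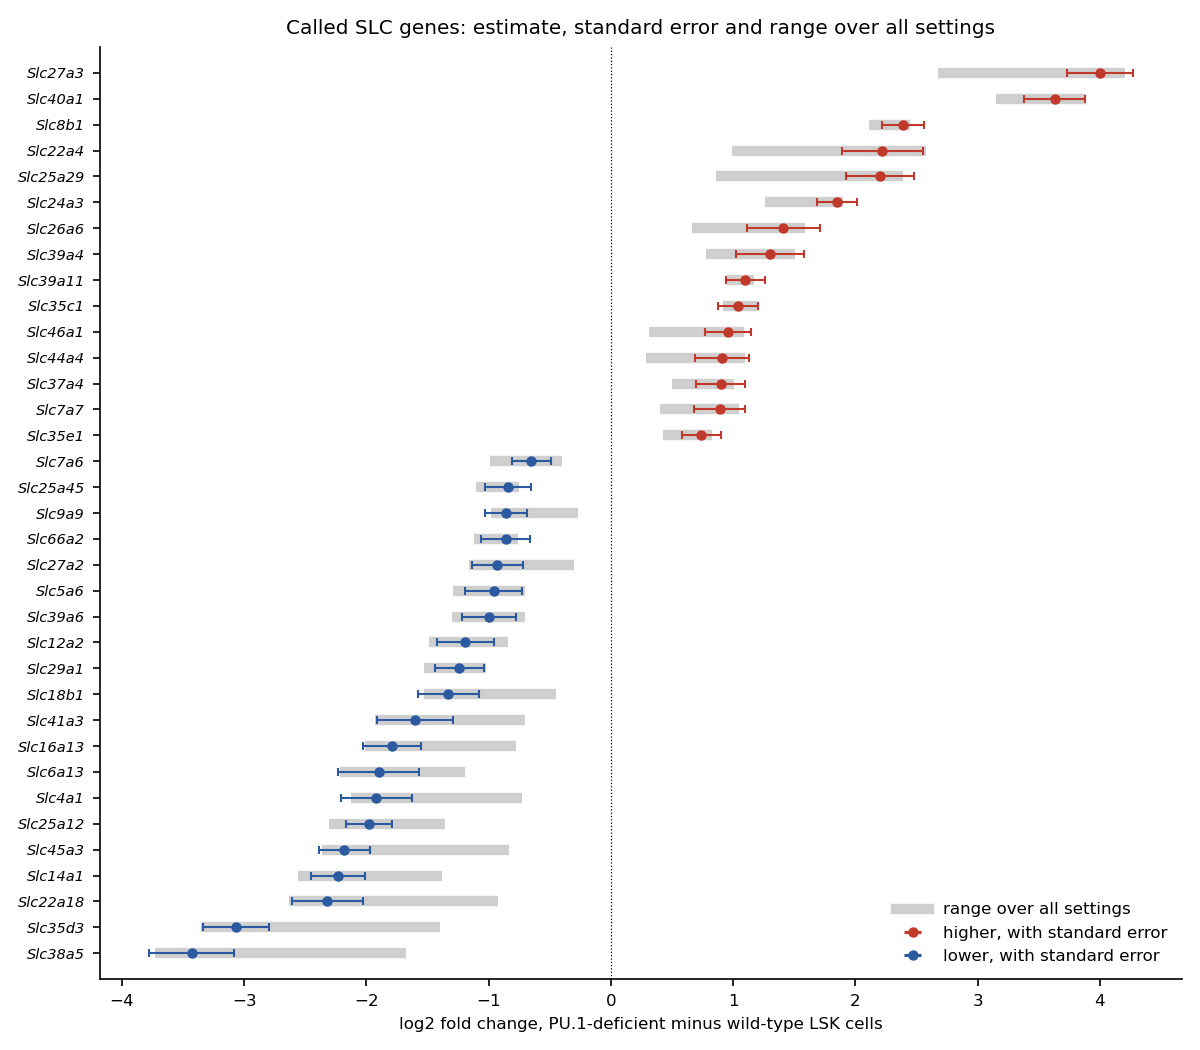
Log2 fold change (PU.1-deficient minus wild type, horizontal axis) of the 35 called solute carrier genes, with the estimate and its standard error (red for higher, blue for lower) and a grey band for the range of the estimate over all settings. No band crosses 0, and the band of *Slc38a5* is the widest, from -3.73 to -1.68.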

How the data were processed

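Gene expression was measured in 3 PU.1-deficient and 3 wild-type pools of LSK cells, with 1 array per pool. The authors deposited linear intensities before normalization, with a detection p-value per probe and array, and the headings of each such pair of columns are exchanged, as their ranges show. A second deposited table gives the authors' log2 values for 19750 probes, normalized by them with *limma* (submitters' processing notes). The intensities were normalized again with neqc (*limma* 3.58.1 in R 4.3.3, background from the detection p-values, offset 16), and the largest difference between both sets of log2 values was 0.026. Of 45281 probes, 22119 were detected (p-value under 0.05) on 1 or more arrays and entered the linear model of *limma* (lmFit and eBayes), with Benjamini-Hochberg adjustment over all of them and a threshold of 0.05. The p-values are two-sided and set the difference between the genotypes against the spread between pools, which the fit takes as independent. The fit was run on simulated data with known changes and noise drawn independently for each array. That run cannot show how the fit behaves where pools share deviations. Genes were named from the platform annotation, which gave 1 gene to 16548 probes, and grouped by family number. Where a gene was undetected in all pools of a genotype, its fold is a bound, taken against the higher of its own value and the lowest detected value on each array. The genes named are the 12 largest rises and 12 largest falls among called genes, all calls of a class with at most 5, a preset list of carriers of blood cells and called partner genes. *Slc7a5*, *Slc16a1* and *Slc6a4* of the preset list were not analysed here. Members, lists and tests were chosen with earlier results of these data known. The labels do not say that pool numbers pair samples, and pools were not paired. Alternatives covered scaling, background, offset, filter, values, threshold, weights, probes, a block and the pools.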

Additional observations from a re-analysis of the deposited data

How the results depend on the processing

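None of the 35 called genes changed sign in any of 17 alternative settings, and 15 passed in all of them. The median log2 fold change of the solute carrier genes was -0.30 with scaling to equal medians, which moved the median of all probes to -0.21 from -0.05. Under that scaling 8 genes were higher and 20 lower, so that 28.6% of the calls were higher, against 42.9% with quantile normalization, while over all probes these shares were 37.1% and 55.6%. Leaving out 1 pool gave 8 to 13 genes higher and 9 to 23 lower, with a median of -0.11 to -0.05. At an adjusted p under 0.01, 8 were higher and 9 lower. With the pool number as a replicate block, 25 were higher and 36 lower, and these included all 35 genes called without it. *Slc18a2* (adjusted p = 0.0243), *Slc48a1* (0.0302), *Slc39a10* (0.031) and *Slc30a1* (0.0403) also passed with the block. The deviations of same-numbered pools from their group means correlated at 0.72, 0.607 and -0.15 for numbers 1 to 3. Pools numbered 1 and 2 thus shared deviations across the genotypes, and pools numbered 3 did not. The main fit left the pools unpaired because the labels do not say that the numbers pair them. What the numbers stand for was not tested. With array weights 27 were higher and 63 lower, and leaving out D2 and W1 together gave 24 and 53. That last setting was added after seeing the data, since D2 and W1 had the lowest weight of their genotype. Alternative settings were followed gene by gene for the called and preset genes and the called partner genes, and among these 3 that did not pass changed sign. These were *Slc20a1* with scaling to equal medians (-0.06), *Slc3a2* with array weights (0.15), and without D1 (0.25) or W3 (0.03), with a range of -0.21 to 0.25 over the 6 omissions, and *Slc7a11* without D2 (-0.03) or D2 and W1 (-0.01), with a range of -0.03 to 0.39. The causes were not tested. Signal over background sets the limit for genes below detection throughout a genotype, whose folds are bounds.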
